A study of Mus musculus with 6 samples.

Results

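The 10 genes described here are markers of radial glia, the neural stem cells of the developing cortex: *Pax6*, *Hes1*, *Hes5*, *Vim*, *Nes*, *Fabp7*, *Slc1a3*, *Hopx*, *Tnc* and *Ptprz1*. They were taken by name from the gene symbols of an RNA-seq table of E18.5 mouse cortex, and all 10 were found among its 23505 features with a symbol, out of 59484 features in all. The table holds polyA+ RNA of whole cortex from 3 wild-type embryos and 3 Sam68:Slm2 double knockout embryos (dKO), in which the genes *Khdrbs1* (Sam68) and *Khdrbs3* (Slm2) are targeted. Sam68 and Slm2 are RNA-binding proteins of the STAR family that regulate alternative splicing in neurons. The mice are of the C57BL/6 background and the deletions are germline, so every cell of the embryo carries them. The study describes matings of Sam68 heterozygotes that are already Slm2 null, a cross that gives no wild-type littermates, and the labels name no litter or sex, so genotype and litter cannot be told apart. In bulk RNA of a whole cortex, fewer cells of a type and less RNA per cell cannot be told apart either.

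Radial glia line the ventricle, divide there to renew themselves and to give intermediate progenitors and neurons, and send a long fibre to the pial surface along which newborn neurons migrate. Around birth they turn from making neurons to making astrocytes and other glia, and many of their genes, *Slc1a3*, *Fabp7* and *Vim* among them, stay active in those glia. Apical radial glia keep contact with the ventricle, whereas basal (outer) radial glia have lost it; *Hopx*, *Tnc* and *Ptprz1* are best known as markers of the latter in primates.

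Between 31837922 and 40896541 reads per library lay on the listed features, and the radial glia genes held from 352 to 20760 reads each in a library. In the targeted genes, *Khdrbs1* fell from 8213 ± 232 to 152 ± 41.5 normalized counts and *Khdrbs3* from 13841 ± 1252 to 6652 ± 366 (SD, n = 3 each). By western blot of cortex from surviving dKO mice the study found both proteins absent, so these RNA values do not measure remaining protein. Values below are normalized counts, that is, read counts divided by a size factor of each library, with means ± SD. Fold changes are dKO against wild-type on a log2(value + 1) scale, with adjusted *P*-values from limma over the 18970 features that averaged at least 10, and the scale understates changes of low genes. Nothing in the labels says which litters or parents the embryos came from, so the *P*-values measure the spread between these 6 samples.

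None of the 10 radial glia genes passed an adjusted *P*-value of 0.05 between the genotypes, whether by limma, by edgeR or by DESeq2. Of the 18970 features, limma called 0.10% and edgeR 0.10%, in either case 19 features, and DESeq2 called 1.06%. At an unadjusted *P*-value under 0.05, limma picked 2 of the 10 (*Pax6* and *Vim*, both higher in dKO), against 11.5% of all features tested, of which 4.92% were higher and 6.58% lower. With edgeR it was 3 (*Hes5* joined them), beside 11.7% of all features, and with DESeq2 it was 4 (*Slc1a3* as well), beside 11.6%. The genotypes did not overlap in 1 gene, *Pax6*, which was higher in every dKO embryo; among all features the genotypes stood apart in 16.4%, with 7.89% higher and 8.48% lower in dKO. Fold changes were above 0 in 4 genes and below 0 in 6, where 50.6% of all features were above 0. The median fold change of the 10 genes was -0.06 on the log2 scale and that of all features was 0.00. The sign of the median rested on single libraries: it was 0.06 without wild-type embryo 1, 0.10 without dKO embryo 3 and -0.14 without wild-type embryo 2. The 95% intervals of 9 of the 10 genes lay within a 2-fold change in either direction, from -0.85 at the lowest to 0.55 at the highest. *Hes5* was the exception.

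**Figure D1:**
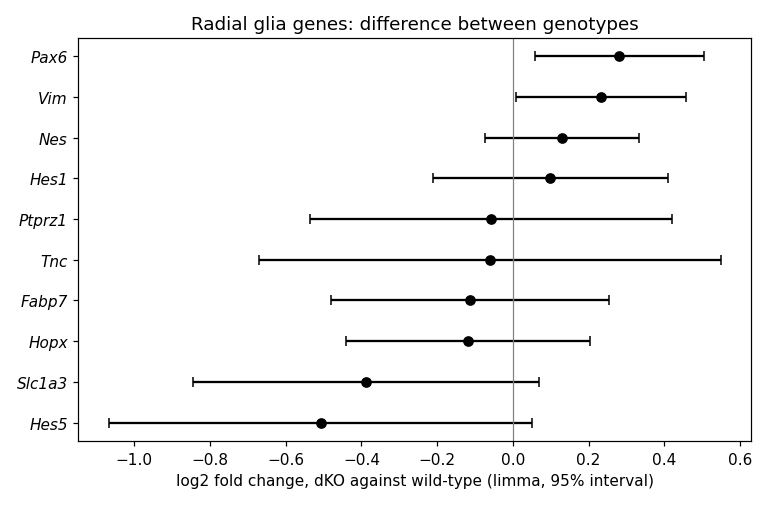
Fold change of the 10 radial glia genes, dKO against wild-type, on a log2 scale (points, limma) with 95% intervals (bars), 3 embryos a genotype. The intervals of *Pax6* and *Vim* lie above 0 before adjustment, those of the other genes include 0, and no gene passed the adjusted threshold.

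*Pax6* encodes the paired-box transcription factor that sets the dorsal identity of cortical progenitors and drives neurogenesis. Its feature (GSMG0021515, mm10 chromosome 2, 105668894-105698410, plus strand) had 791, 840 and 909 normalized counts in the wild-type embryos and 1034, 952 and 1102 in the dKO embryos. All 3 dKO embryos were thus above all 3 wild-type embryos, with no overlap between the genotypes. The mean went from 847 ± 59.2 to 1029 ± 75.2 (n = 3 each), 122% of wild-type. The log2 fold change of 0.28 (95% interval 0.06 to 0.50, SE 0.10) had an unadjusted limma *P*-value of 0.0186 and an adjusted one of 0.369. An exact two-sided permutation test gave p = 0.1, the smallest that 3 against 3 embryos allow. With 1 embryo left out at a time the fold change stayed between 0.23 and 0.34. Its *P*-values were the lowest of the 10 genes by limma and edgeR.

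Other features of the table overlap the *Pax6* span. *Elp4*, which encodes an Elongator subunit and adjoins *Pax6*, lay between 474 and 569 normalized counts in the 6 libraries, with a fold change of 0.13. *Pax6os1*, annotated on the opposite strand, lay between 5.80 and 22.6, and an unnamed feature (GSMG0023281, 105671108-105674449) between 30.3 and 88.0. All 3 were lower than *Pax6* in every library. The kit keeps strand, but the setting used in counting is not given in the sources used here, so how reads of these stretches were divided was not tested.

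**Figure D2:**
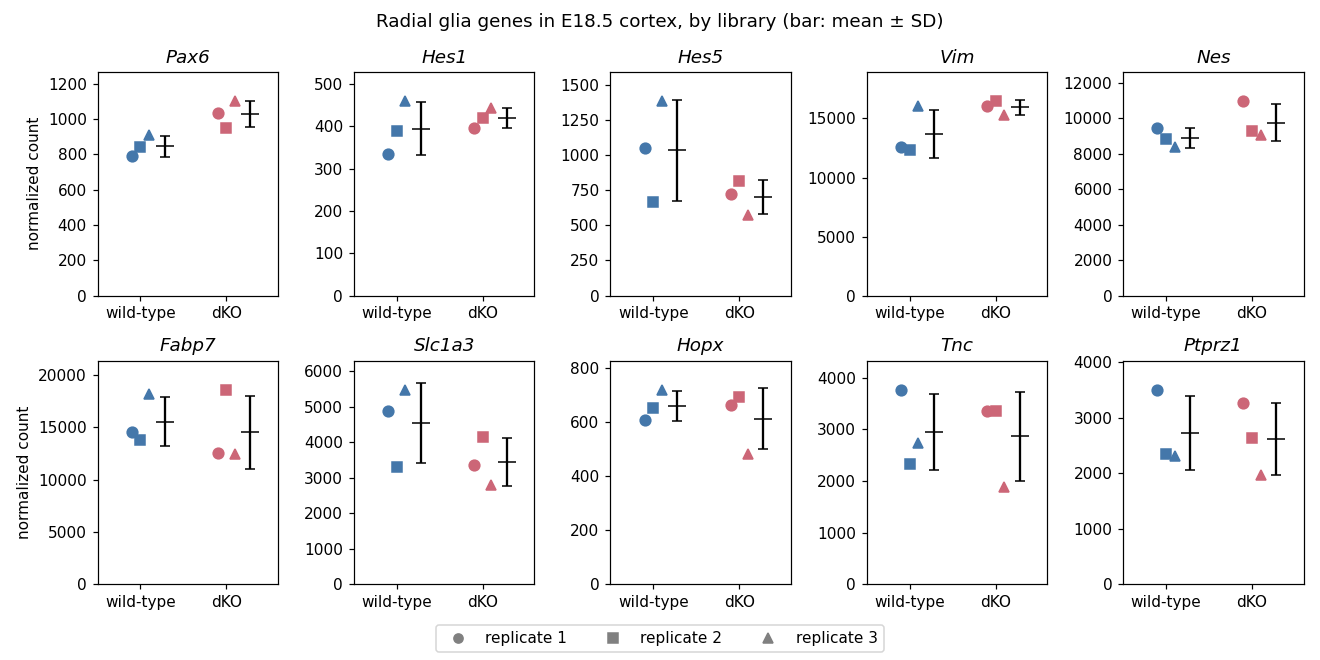
Normalized counts of the 10 radial glia genes in the 3 wild-type and 3 dKO libraries, 1 panel a gene with its own axis from 0, with coloured symbols for embryos and black bars for mean ± SD. Wild-type and dKO points are apart in the *Pax6* panel and overlap in the panels of the other 9 genes.

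*Hes1* and *Hes5* encode basic helix-loop-helix repressors through which Notch signalling holds radial glia undifferentiated. On ligand binding, the freed Notch domain joins the DNA-binding protein RBPJ and switches both genes on, and their products keep proneural genes down. The sequence before *Hes5* is shown here because it holds the RBPJ core letters and because another feature of the table crosses it. The core, GTGGGAA, was searched on both strands (TTCCCAC on the other) in the 250 bases before each gene start in RefSeq (GRCm38.p6), where 9 of the 10 genes matched an entry and *Hes1* did not. *Hes5* held the core 2 times, with its first base 226 and 83 bases before the start. *Tnc* held it 82 bases before 1 of its 2 starts, and no window of the other matched genes held it. Of all 32841 promoter windows, 5.41% did. The windows are chr4:154960673-154960922 (plus strand) for *Hes5* and chr4:64046937-64047186 (minus strand) for *Tnc*, written 5′ to 3′ with the core in capitals.
Hes5: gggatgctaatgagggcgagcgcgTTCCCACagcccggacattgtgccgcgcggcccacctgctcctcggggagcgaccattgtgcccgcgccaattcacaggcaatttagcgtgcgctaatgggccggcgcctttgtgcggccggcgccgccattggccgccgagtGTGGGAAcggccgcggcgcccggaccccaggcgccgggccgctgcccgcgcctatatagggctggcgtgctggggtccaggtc
Tnc: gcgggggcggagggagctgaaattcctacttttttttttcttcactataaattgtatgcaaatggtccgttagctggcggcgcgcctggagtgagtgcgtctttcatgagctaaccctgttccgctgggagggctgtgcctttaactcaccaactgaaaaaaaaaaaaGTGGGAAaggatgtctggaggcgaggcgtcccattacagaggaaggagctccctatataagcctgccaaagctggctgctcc
The letters describe the windows and say nothing of binding in these embryos. The N box that HES proteins bind, searched as CACNAG on both strands (CTNGTG on the other), was absent from the 2 printed windows. It stood in the windows of *Vim*, *Fabp7*, *Slc1a3* and *Ptprz1* and in 1 of the 2 windows of *Pax6* and of *Hopx*. Of all windows, 36.7% held it.

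*Hes1* (GSMG0014858, chromosome 16, 30065340-30067795, plus strand) had 335, 388 and 459 normalized counts in the wild-type and 396, 419 and 442 in the dKO embryos. The dKO values lay inside the wild-type range. Means were 394 ± 62.5 and 419 ± 23.1, and the log2 fold change was 0.10 (95% interval -0.21 to 0.41, adjusted limma *P*-value 0.807). It was -0.012 without wild-type embryo 1 and 0.22 without wild-type embryo 3.

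*Hes5* (GSMG0027464, chromosome 4, 154960920-154962371, plus strand) had 1052, 664 and 1383 normalized counts in wild-type embryos and 722, 813 and 572 in dKO embryos. Wild-type embryos 1 and 3 were above all dKO embryos, while wild-type embryo 2 was below 2 of them. The mean was 1033 ± 360 in wild-type and 702 ± 122 in dKO, or 68.0% of wild-type. The log2 fold change of -0.51 (95% interval -1.07 to 0.05, SE 0.25) was the furthest from 0 of the 10 genes, but its adjusted limma *P*-value was 0.473 and the exact two-sided permutation test gave p = 0.3. It ranged from -0.79 without wild-type embryo 2 to -0.27 without wild-type embryo 3. Unadjusted *P*-values were 0.0699 with limma, 0.0479 with edgeR and 0.0094 with DESeq2, and the adjusted DESeq2 value was 0.224. Relative to its mean, *Hes5* had the widest wild-type spread of the 10 genes.

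An unnamed feature (GSMG0028738, chromosome 4, 154957901-154961264) covers the printed *Hes5* window and the 5′ end of the gene, where the GENCODE annotation has *Gm20421* on the opposite strand. It had 73.2, 151 and 105 normalized counts in the wild-type and 82.6, 63.8 and 29.0 in the dKO embryos, so the genotypes overlapped in dKO embryo 1 and wild-type embryo 1. Its fold change was -0.96 (95% interval -1.84 to -0.09, adjusted limma *P*-value 0.399). Among the wild-type embryos it was highest in embryo 2, the lowest of them in *Hes5*. The feature that overlaps *Hes1* (GSMG0066598, 7.26 to 22.8 normalized counts) was far below the gene itself.

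The list of Notch components around *Hes1* and *Hes5* had 12 genes, of which *Nrarp* was not in the table and 11 were tested. None was called by limma, 6 fold changes were above 0 and 5 below, and the median was 0.00 as over all features. *Rbpj*, the DNA-binding partner of Notch, had 704 ± 45.5 normalized counts in the wild-type and 875 ± 115 in the dKO embryos (fold change 0.31, adjusted limma *P*-value 0.393). *Heyl*, another repressor downstream of Notch, had 356 ± 49.6 and 274 ± 32.3 (-0.37, adjusted 0.401). These 2 were at the ends of the list and the only ones of the 11 with an unadjusted limma *P*-value under 0.05, beside 11.5% of all features.

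*Vim* and *Nes* encode the intermediate filament proteins vimentin and nestin, which run through the radial fibre and its endfeet. *Vim* (GSMG0020683, chromosome 2, 13573952-13582826, plus strand) had 12604, 12364 and 16014 normalized counts in the wild-type and 16081, 16475 and 15269 in the dKO embryos. Wild-type embryo 3 stood among the dKO embryos, and dKO embryos 1 and 2 were above all wild-type embryos. The mean was 13661 ± 2042 in wild-type and 15942 ± 615 in dKO, 117% of wild-type. The log2 fold change of 0.23 (95% interval 0.01 to 0.46, SE 0.10) had an unadjusted limma *P*-value of 0.0434 and an adjusted one of 0.420, and was between 0.17 (without wild-type embryo 2) and 0.35 (without wild-type embryo 3) with 1 embryo left out. An unnamed feature over the whole *Vim* span (GSMG0067224, 360 to 615 normalized counts) had a fold change of 0.05.

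*Nes* (GSMG0024505, chromosome 3, 87971066-87980449, plus strand) had 9471, 8830 and 8378 normalized counts in the wild-type and 10972, 9266 and 9034 in the dKO embryos. Only dKO embryo 1 was above all wild-type embryos. Means were 8893 ± 549 and 9757 ± 1058, with a log2 fold change of 0.13 (95% interval -0.07 to 0.33, adjusted limma *P*-value 0.598). Without dKO embryo 1 it was 0.043.

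*Fabp7* encodes brain lipid-binding protein, a fatty acid carrier of radial glia induced by contact with neurons, and *Slc1a3* encodes GLAST, the glutamate transporter of radial glia and astrocytes. *Fabp7* (GSMG0003014, chromosome 10, 57784919-57788450, plus strand) had 14574, 13829 and 18200 normalized counts in the wild-type and 12529, 18590 and 12421 in the dKO embryos. In dKO the embryos fell on both sides of the wild-type range, 1 above it and 2 below it. Means were 15535 ± 2338 and 14513 ± 3531, with a log2 fold change of -0.11 (95% interval -0.48 to 0.25, adjusted limma *P*-value 0.808). It was 0.0053 without wild-type embryo 3 and -0.31 without dKO embryo 2.

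*Slc1a3* (GSMG0013758, chromosome 15, 8634124-8710807, minus strand) had 4872, 3294 and 5483 normalized counts in the wild-type and 3356, 4158 and 2810 in the dKO embryos. As for *Hes5*, wild-type embryos 1 and 3 were above all dKO embryos and wild-type embryo 2 was not. The mean of 4550 ± 1129 in wild-type became 3441 ± 678 in dKO, 75.6% of wild-type. The log2 fold change of -0.39 (95% interval -0.85 to 0.07, SE 0.20) had an adjusted limma *P*-value of 0.495, and the exact two-sided permutation test gave p = 0.3. It was -0.61 without wild-type embryo 2 and -0.24 without wild-type embryo 3. The unadjusted *P*-value was 0.0863 with limma and 0.0200 with DESeq2. Features inside the *Slc1a3* span held at most 17.1 normalized counts.

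*Hopx* encodes a small homeodomain protein that does not bind DNA itself, *Tnc* the extracellular matrix protein tenascin C, and *Ptprz1* a receptor tyrosine phosphatase that carries chondroitin sulphate chains and binds tenascin C and pleiotrophin. *Hopx* (GSMG0030661, chromosome 5, 77086986-77115160, minus strand) had 608, 652 and 720 normalized counts in the wild-type and 663, 693 and 484 in the dKO embryos. Only dKO embryo 3 lay below the wild-type range. Means were 660 ± 56.4 and 613 ± 113, with a log2 fold change of -0.12 (95% interval -0.44 to 0.20, adjusted limma *P*-value 0.769), and of 0.04 without that embryo.

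*Tnc* (GSMG0027906, chromosome 4, 63959785-64047015, minus strand) had 3767, 2333 and 2737 normalized counts in the wild-type and 3359, 3362 and 1879 in the dKO embryos. Means were 2946 ± 740 and 2867 ± 855, with a log2 fold change of -0.06 (95% interval -0.67 to 0.55, adjusted limma *P*-value 0.947). *Tnc* and *Ptprz1* had the same extreme libraries, wild-type embryo 1 at the top and dKO embryo 3 at the bottom. *Ptprz1* (GSMG0031567, chromosome 6, 22875500-23052916, plus strand) had 3499, 2352 and 2314 normalized counts in the wild-type and 3264, 2627 and 1972 in the dKO embryos. Means were 2722 ± 673 and 2621 ± 646, with a log2 fold change of -0.06 (95% interval -0.54 to 0.42, adjusted limma *P*-value 0.935). Without dKO embryo 3 the fold changes turned to 0.22 for *Tnc* and 0.13 for *Ptprz1*, and without wild-type embryo 1 to 0.13 for *Tnc* and 0.14 for *Ptprz1*. Features that match opposite-strand annotation over *Hopx* (GSMG0029317, at *Hopxos*) and *Tnc* (GSMG0026644, at *8030451A03Rik*) reached 19.3 and 13.6 normalized counts at most.

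The 10 genes on the list of partners of *Tnc* and *Ptprz1* (among them ligands, adhesion molecules, proteoglycans and integrins) were all tested. None was called by limma. Fold changes were above 0 in 5 and below 0 in 5. Of the 10, 2 had an unadjusted limma *P*-value under 0.05, both lower in dKO, beside 6.58% of all features lower. *Ptn*, the pleiotrophin gene, was 1 of them. It alone of the 10 had no overlap, and 8.48% of all features were lower with no overlap. *Ptn* had 40850 ± 4360 normalized counts in the wild-type and 35158 ± 1896 in the dKO embryos (-0.21, adjusted limma *P*-value 0.402). *Mdk*, the growth factor midkine, had the highest fold change (0.32, adjusted limma *P*-value 0.553), which was 0.059 without wild-type embryo 1. *Cntn1*, the adhesion molecule contactin 1, had 3207 ± 764 normalized counts in the wild-type and 2471 ± 111 in the dKO embryos (-0.35, adjusted 0.399, and -0.17 without wild-type embryo 1).

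Divided by the length of its exons in kb, *Fabp7* had the highest level of the 10 genes in wild-type, with 12428 ± 1871 normalized counts per kb, followed by *Vim* with 2880 ± 430 and *Nes* with 1386 ± 85.6. *Hes5* had 758 ± 264, *Slc1a3* 533 ± 132, *Hopx* 435 ± 37.2 and *Tnc* 379 ± 95.2 normalized counts per kb. At the low end stood *Hes1* with 193 ± 30.7, *Ptprz1* with 191 ± 47.3 and *Pax6* with 72.4 ± 5.06. The wild-type ranges of *Fabp7* and *Vim* were apart, by 4.31-fold between means, as were those of *Vim* and *Nes* (2.08-fold), *Nes* and *Hes5* (1.83-fold), *Tnc* and *Hes1* (1.96-fold) and *Ptprz1* and *Pax6* (2.64-fold). Ranges overlapped between *Hes5* and *Slc1a3*, *Slc1a3* and *Hopx*, *Hopx* and *Tnc*, and *Hes1* and *Ptprz1*, and the levels of these neighbours were not told apart. Lengths were the union of all annotated exons, from 1250 bp in *Fabp7* to 14245 bp in *Ptprz1*. With the longest transcript as the length instead, *Slc1a3* (1026 per kb) moved above *Hes5* (812) and *Ptprz1* (337) above *Hes1* (268), and *Pax6* (191) stayed lowest. In dKO embryos the levels ran from 11611 normalized counts per kb for *Fabp7* to 88.0 for *Pax6*.

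**Figure D3:**
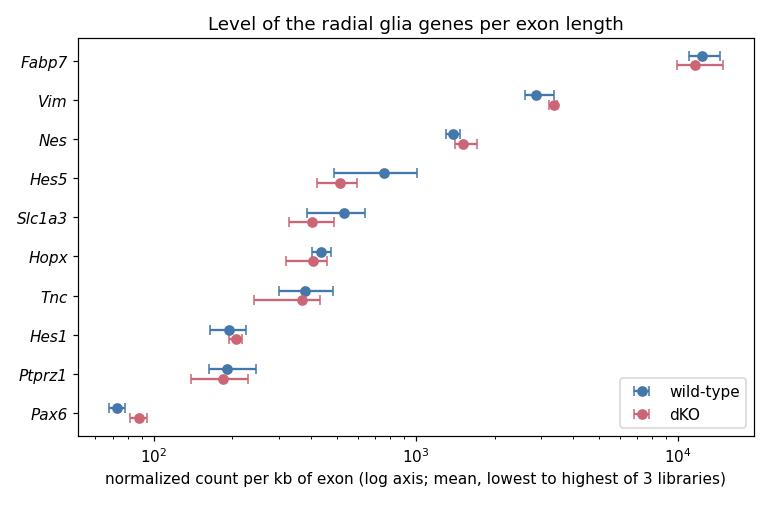
Level of the 10 radial glia genes in normalized counts per kb of exon (log axis), with a point for each genotype mean and a bar from the lowest to the highest of its 3 embryos. *Fabp7* is highest and *Pax6* lowest in both genotypes.

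The spread between embryos was not the same for all genes or libraries. The coefficient of variation ran from 6.18% (*Nes*) to 34.9% (*Hes5*) in the wild-type and from 3.85% (*Vim*) to 29.8% (*Tnc*) in the dKO embryos. dKO embryo 3 was the lowest of the 6 libraries in 6 of the genes and wild-type embryo 3 the highest in 4. The median log2 deviation of the 10 genes from their mean over libraries was 0.00, -0.15 and 0.15 in the wild-type embryos and 0.10, 0.07 and -0.32 in the dKO embryos, where that of all features was 0.00 in each library. *Pax6* went the other way, with its highest value in dKO embryo 3.

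*Hes5* and *Slc1a3* ordered the 6 libraries identically, from wild-type embryo 3 through wild-type 1, dKO 2, dKO 1 and wild-type 2 down to dKO 3. Of all features tested, 121 (0.638%) had that order, among them *Ednrb* and *Mfge8* of the further radial glia genes. No other pair of the 10 genes shared an order. The order of *Pax6* was found in 43 features, among them *Tfap2c*. Likeness was taken here as an identical ranking of the 6 libraries, and with 6 points it is a description.

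Libraries also differed with exon length. Over 13974 features with a length, Spearman's correlation across genes between a library's deviation and exon length was 0.22, -0.10 and -0.18 in wild-type and 0.31, -0.22 and -0.12 in dKO embryos. Wild-type embryo 1 and dKO embryo 1, the libraries with positive values, held the highest values of the longest member, *Ptprz1*. *Pax6*, the next longest at 11694 bp, did not follow this. Its lowest value was in wild-type embryo 1 and its highest in dKO embryo 3. With features adjusted within 20 bins of length, the fold change was 0.25 for *Pax6*, 0.25 for *Vim* and -0.51 for *Hes5*. It moved from -0.11 to -0.18 for *Fabp7*, the shortest of the 10 genes, and from -0.06 to -0.10 for *Ptprz1*, the longest.

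**Figure D4:**
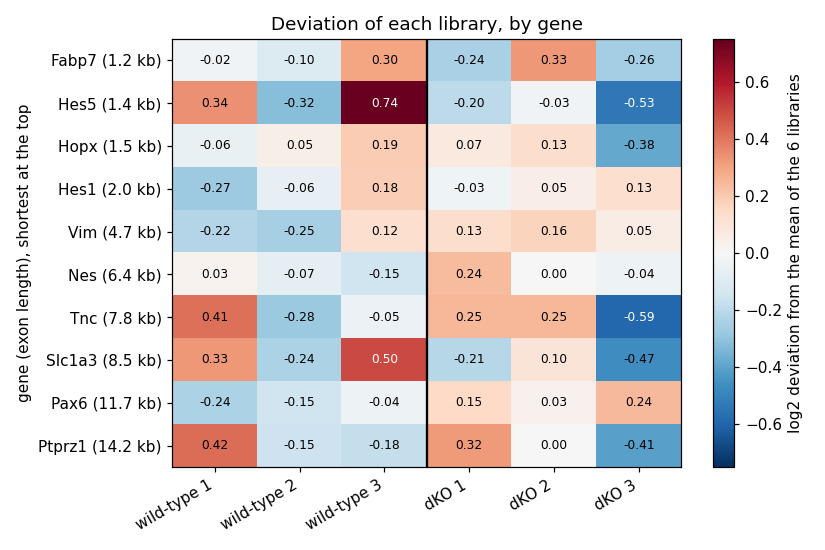
Log2 deviation of each of the 6 libraries (columns) from the mean of the libraries, for the 10 radial glia genes (rows, shortest exon length at the top). dKO embryo 3 is lowest in 6 rows, and the *Hes5* and *Slc1a3* rows have the same order of libraries.

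Of 25 further radial glia genes on the list, *Sox1* was not in the table and 24 were tested. None was called by limma, edgeR or DESeq2. Fold changes were above 0 in 15 and below 0 in 9, with a median of 0.09. At an unadjusted limma *P*-value under 0.05 were 4 genes, all higher in dKO, beside 4.92% of all features higher and 6.58% lower. With no overlap between the genotypes, 4 of the 24 were higher in dKO and 1 was lower, beside 7.89% and 8.48% of all features. *Tfap2c*, a transcription factor of radial glia that promotes basal progenitors, had 103 ± 29.8 normalized counts in the wild-type and 181 ± 43.7 in the dKO embryos, with no overlap (fold change 0.82, 95% interval 0.23 to 1.41, adjusted limma *P*-value 0.345). *Gli3*, which encodes a transcription factor of the Hedgehog pathway that patterns the dorsal forebrain, had 225 ± 28.7 and 316 ± 25.7, also with no overlap (0.49, 95% interval 0.16 to 0.83, adjusted 0.332). *Sox3*, a SOXB1 factor of neural progenitors, had 660 ± 108 and 840 ± 107 (0.35, adjusted 0.393).

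At the other end of that list stood *Pdgfd*, a gene for a platelet-derived growth factor, with 45.9 ± 7.55 normalized counts in the wild-type and 31.5 ± 2.80 in the dKO embryos, without overlap (fold change -0.52, adjusted limma *P*-value 0.512). *Fam107a* had 111 ± 80.0 and 73.2 ± 50.8 (-0.50, adjusted 0.780), and its wild-type spread exceeded the difference. *Ednrb*, the endothelin receptor of radial glia and astrocytes, had 2162 ± 686 and 1507 ± 306 (-0.48, adjusted 0.509). The summed counts of the further radial glia genes lay between 69808 and 77598 in wild-type and between 71258 and 81513 in dKO embryos.

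The cell cycle list bears on dividing progenitors of any kind. All 13 genes had a fold change above 0, with a median of 0.30, 9 were higher in dKO with no overlap (7.89% of all features were) and 8 were higher with an unadjusted limma *P*-value under 0.05 (4.92% of all features), though none was called. Their sum ran from 14900 to 16947 normalized counts in the wild-type and from 19036 to 19930 in the dKO embryos, and the genotypes did not overlap. *Ccna2*, the S and G2 phase cyclin A2, had 1134 ± 131 and 1505 ± 69.1 (0.41, adjusted limma *P*-value 0.263), and *Ccnd1*, cyclin D1, 409 ± 40.4 and 423 ± 45.9 (0.05, adjusted 0.916). All 8 genes of the intermediate progenitors, the daughter cells of radial glia, were above 0 as well, with a median of 0.49. *Tac2* was the highest at 0.98 and *Hes6* the lowest at 0.01. The level of *Tac2* was low, 9.51 to 54.4 normalized counts, and its genotypes overlapped. Of the 8 genes, 5 were higher with an unadjusted limma *P*-value under 0.05 (4.92% of all features). In 3 of the 8, dKO was higher with no overlap (7.89% of all features). limma and edgeR called none of the 8. DESeq2, which called 1.06% of all features, called *Btg2* (0.48, adjusted DESeq2 *P*-value 0.0241) and *Insm1* (0.49, adjusted 0.0241), 2 genes chosen for naming after their values were seen. The 10 radial glia genes had fold changes on both sides of 0, and the difference between the lists was not tested. The lists were chosen with earlier results of these data known, so their counts beside the shares of all features are a description. By staining at the same age, the study reported fewer SOX2-positive and TBR2-positive progenitors in dKO cortex, a count of cells and not of RNA. How these measures relate was not tested.

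**Figure D5:**
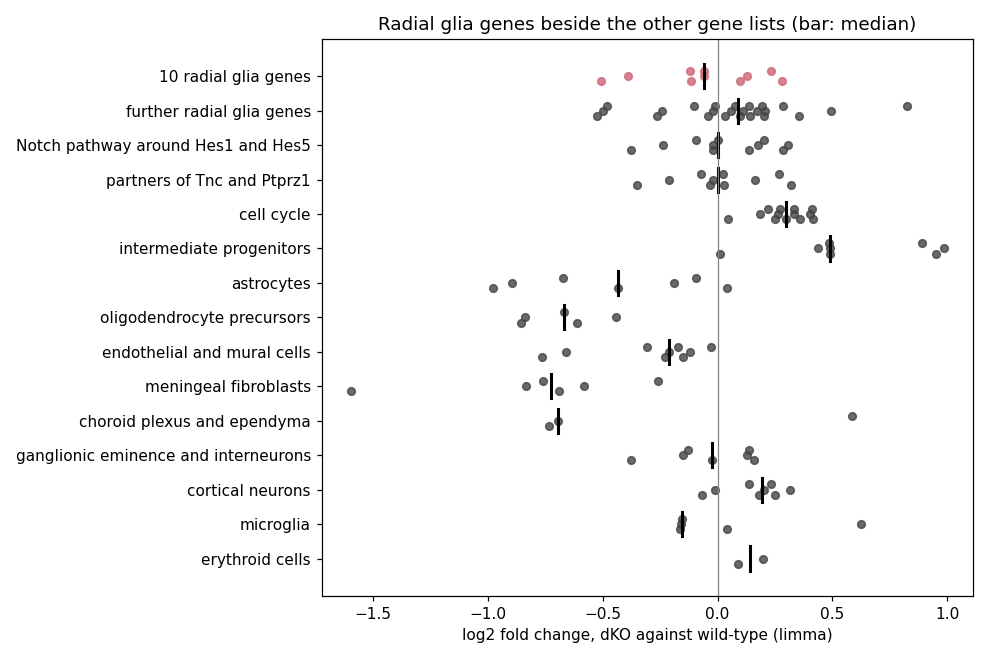
Log2 fold changes, dKO against wild-type, of the genes of each list (points) with the median of the list (bar). The 10 radial glia genes lie on both sides of 0. All cell cycle, intermediate progenitor and erythroid genes lie above 0. All oligodendrocyte precursor, endothelial and mural, and meningeal fibroblast genes lie below 0.

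Markers of the other cells of the cortex were checked because several share genes with radial glia. None of the lists that follow held a gene called by limma or edgeR. The 8 astrocyte genes (7 tested, since *Gjb6* was low) had a median of -0.43 with 6 fold changes below 0, from -0.98 for *Aqp4* to 0.04 for *Aldoc*. Their sum was 10252, 6818 and 12062 normalized counts in the wild-type and 8688, 10290 and 7311 in the dKO embryos, so that wild-type embryo 3 was the highest, as in *Hes5* and *Slc1a3*, and wild-type embryo 2 and dKO embryo 3 the lowest. Most of that sum was *Aldoc*, with 6103, 4329 and 6950 in the wild-type and 5963, 6785 and 4962 in the dKO embryos. The part of astrocytes in the values of *Hes5* and *Slc1a3* was not tested. The 5 oligodendrocyte precursor genes were all below 0 with a median of -0.67, between -0.86 for *Pdgfra* and -0.44 for *Cspg4*, and summed to 6865 to 11942 in wild-type and 3804 to 6466 in dKO embryos. Of the 5, 3 were lower with an unadjusted limma *P*-value under 0.05 (6.58% of all features). In 1 of the 5, dKO was lower with no overlap (8.48% of all features). DESeq2 alone called *Pdgfra* (-0.90, adjusted DESeq2 *P*-value 0.0475).

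All 9 endothelial and mural genes, some of whose cells contain *Vim*, had fold changes below 0 (median -0.21), from -0.76 for *Flt1*, which DESeq2 called (-0.78, adjusted DESeq2 *P*-value 0.0241), to -0.03 for *Cldn5*. Their sums were 11754 to 13626 in wild-type and 9506 to 11708 in dKO embryos. All 6 meningeal fibroblast genes, whose cells also contain *Vim*, were below 0 (median -0.72), from -1.59 for *Dcn* to -0.26 for *Foxc1* (-0.83 and -0.027 without wild-type embryo 3), and summed to 589 to 1602 and 565 to 631. The meningeal sums overlapped between the genotypes. The part of endothelial, mural and meningeal cells in the values of *Vim* was not tested. Choroid plexus and ependyma markers were scarce, with sums of 180 to 437 in wild-type and 119 to 294 in dKO embryos. *Ttr*, *Folr1* and *Kcnj13* were below the mean of 10. Of the 3 tested, *Foxj1* had 99.7 to 332 normalized counts and a fold change of -0.69 (adjusted limma *P*-value 0.486), with the genotypes overlapping. The other tested genes were lower in level, *Otx2* (1.90 to 28.1) at 0.58 and *Clic6* (3.63 to 56.1) at -0.73.

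*Pax6* is also expressed in the lateral ganglionic eminence. The 7 genes of ganglionic eminence and interneurons had a median of -0.02, from -0.38 for *Gsx2* to 0.16 for *Lhx6*, and their sums overlapped (6178 to 7989 and 5725 to 7757). The 8 cortical neuron genes, defining the tissue, summed to 230638 to 249817 in wild-type and 256050 to 292591 in dKO embryos, with a median of 0.19, *Bcl11b* at 0.31 and *Rbfox3* at -0.07. Microglia genes had a median of -0.15, with *Aif1* at 0.62 and *Csf1r* at -0.16, and the erythroid genes measured, *Alas2* and *Hba-a1*, were at 0.20 and 0.09. No listed marker was at 0 in all libraries, and their part in the values of the radial glia genes was not tested.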

How the data were processed

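Cortex polyA+ RNA of 3 wild-type and 3 dKO embryos (E18.5) was sequenced from stranded libraries. The processing notes of the submitters name STAR 2.7.5a, SAMtools, Picard, FastQC, DESeq2 and mm10, and the counting program and strand setting are not given in the sources used here. The authors deposited the signal of each FAST database feature as a normalized count (reads divided by a size factor). Whole reads, worth 0.877 to 1.16 normalized counts each, were recovered from 100% of the values above 0 (tolerance 0.001).

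Genotypes were compared with limma 3.58.1 (R 4.3.3, trend and robust options) on log2(normalized count + 1) for 18970 features averaging at least 10, with Benjamini-Hochberg adjustment over all of them at 0.05, and single values by exact two-sided permutation tests. Fits were tested on simulated data. edgeR 4.0.16 (quasi-likelihood) and DESeq2 1.42.0 on the recovered reads, other pseudocounts, filters and normalizations, limma without trend and robust options, the replicate number as a block, length bins and each library left out were alternatives. Exon lengths came from GENCODE (M21) and promoters from RefSeq. Python 3.11.15 (scipy 1.17.1, numpy 2.4.6, pandas 2.3.3, matplotlib 3.10.9) was used for the rest.

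The 10 genes and the 14 lists were chosen with earlier results of these data known. Named are the 10 genes, the targeted genes, features overlapping the 10, list genes with an adjusted *P*-value under 0.05, and the largest rise and fall of each list (3 of each for the further radial glia genes). *Ptn* and *Foxj1* were named in addition after their values were seen.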

Additional observations from a re-analysis of the deposited data

How the results depend on the processing

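None of the 10 radial glia genes was called under any of the 13 other settings or with any library left out. Under the other settings, 0 of 130 fold changes of these genes changed sign and the smallest adjusted *P*-value was 0.224. With a library left out, 7 of 60 changed sign, in *Hes1* (-0.012 to 0.22), *Fabp7* (-0.31 to 0.0053), *Hopx* (-0.22 to 0.043), *Tnc* (-0.21 to 0.22) and *Ptprz1* (-0.23 to 0.14), and the smallest adjusted *P*-value was 0.107. Leaving out 1 library moved the fold change by over 1.5 times, or past 0, in 9 of the 10 genes (all but *Pax6*) and in 29 of the 44 other named genes and features. *Ptn*, *Foxj1*, *Mfge8* and features averaging under 10 were not among those 44, which also held *Khdrbs2*, a paralog of the targeted genes. The number of these genes at an unadjusted *P*-value under 0.05 was 2, and it was 1 with quantile normalization, 1 without trend and robust options, 4 with DESeq2 and 0 to 3 with a library left out. The number whose genotypes did not overlap went from 1 to between 1 and 3 with a library left out, a check chosen after seeing the data. Over all features, 19 were called, against 7 without trend and robust options, 202 with DESeq2, 30 at an adjusted *P*-value under 0.1, and 7 to 46 with a library left out (8 without wild-type 1, 32 without wild-type 2, 10 without wild-type 3, 46 without dKO 1 and 7 without dKO 3). DESeq2 called 2 intermediate progenitor genes, 1 oligodendrocyte precursor gene and 1 endothelial gene, where limma called 0. The cause of these shifts was not tested.

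In a fit that took the replicate number as a block, 9 features and none of the 10 genes were called, and 2 of the 10 stayed at an unadjusted *P*-value under 0.05. The deviations of same-numbered embryos correlated at 0.10, -0.23 and -0.08, and only the number 1 embryos correlated best with each other, so the numbers were not taken to pair the embryos.

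Among the other named genes, *Aldoc* turned to -0.021 with quantile normalization. Signs also changed with a library left out in *Fam107a* (-1.14 to 0.058), *Ccnd1* (-0.028 to 0.13), *Hes6* (-0.038 to 0.094), *Aldoc* (-0.15 to 0.19), *Cldn5* (-0.11 to 0.034), *Otx2* (-0.31 to 1.35), *Rbfox3* (-0.15 to 0.012), *Hba-a1* (-0.019 to 0.20), *Pax6os1* (-0.72 to 0.092), GSMG0023281 (-0.24 to 0.51) and GSMG0067224 (-0.12 to 0.27). With 3 embryos a genotype, the interval of *Hes5* still holds changes past 2-fold, and those of *Tnc*, *Ptprz1* and *Slc1a3* reach below -0.5.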
